A study of Mus musculus with 6 samples.

Results

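The nuclear genes of the respiratory chain were taken by symbol as the genes that start with Ndufa, Ndufb, Ndufc, Ndufs, Ndufv, Uqcr, Cox4i, Cox5, Cox6, Cox7, Cox8 or Atp5, together with Sdha, Sdhb, Sdhc and Sdhd. The rule found 89 of the 19938 genes that had a probe set with 1 gene symbol. The rule reads symbols and no measured values, although this set of genes was picked for description with earlier results of these data known. Expression data came from 6 arrays of the Affymetrix Mouse Gene 1.0 ST type, 3 for AGR cells and 3 for NME cells. NME cells are a normal murine mammary gland line (NMuMG) made to overexpress EGFR by stable viral transduction, and they are sensitive to the EGFR kinase inhibitor AG1478. AGR cells descend from a single NME colony that kept growing in 3D culture under 1 µM AG1478 and was then expanded in 2D culture, so they carry the same EGFR overexpression and represent 1 isolate. The paper's methods state that resistant lines were kept without drug. Both lines were grown in medium with serum and insulin. Nothing in the labels says that the 3 arrays of a line came from separate cultures, so the p-values measure the spread between arrays, which may be technical.

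The respiratory chain is a set of large assemblies in the inner mitochondrial membrane. Complex I takes electrons from NADH and complex II from succinate, and both pass them to coenzyme Q. Complex III hands them on to cytochrome c, complex IV delivers them to oxygen, and complex V, the ATP synthase, makes ATP from the proton gradient that complexes I, III and IV build. Most subunits are encoded in the nucleus, a few in mitochondrial DNA, and complexes I, III, IV and V therefore need both genomes. Several complex IV subunits exist as tissue isoforms, with a widespread form and a form typical of heart and skeletal muscle or of testis.

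The expression of these genes was lower in AGR cells for a subset, which held 14 subunits of complex I and 6 of complex V, and all but 1 of the changes were smaller than 2-fold. Of the 89 genes, 24 were lower in AGR cells, 1 was higher and 64 did not pass the test (limma, Benjamini-Hochberg adjusted p under 0.05 over all 19938 genes). Lower calls made up 27.0% of these genes, against 11.6% of all genes tested and 17.6% of genes brighter than the median of the probe sets. Higher calls made up 1.12%, against 12.6% of all genes and 19.7% of the brighter genes. Calls in either direction made up 28.1% of the respiratory chain genes, against 24.2% of all genes and 37.2% of the brighter genes. All 24 genes that were lower lay above the median of the probe sets, as did 84 of the 89. Among those 84, 28.6% were lower and 1.19% higher in AGR cells. The median log2 fold change (AGR over NME, the direction of every fold change here) was -0.09 over the 89 genes, against -0.02 over all genes and -0.01 over the brighter genes.

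**Figure D1:**
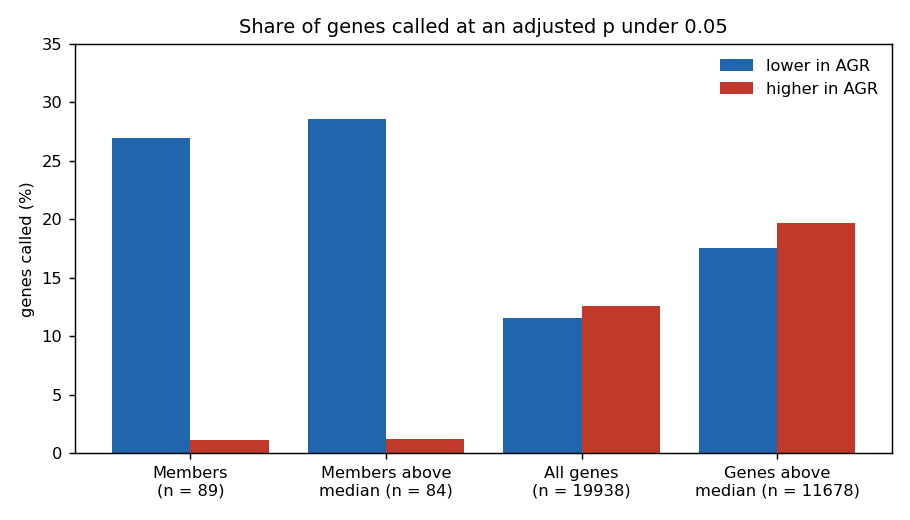
Percent of genes called lower (blue) and called higher (red) in AGR cells among the 89 respiratory chain genes (members), the 84 of them above the median of the probe sets, all 19938 genes and the 11678 genes above that median. Lower calls make up 27.0% and higher calls 1.12% of the 89 genes, against 11.6% and 12.6% of all genes.

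The change of the lower genes in AGR cells lay between -54.7% and -10.5% of the NME level, with a median log2 fold change of -0.32. Cox7a1, the muscle-type isoform of a small complex IV subunit, was the only one of the 89 genes past a 2-fold change, which 3.00% of all genes passed. Without Cox7a1 the range ended at -33.9%. The AGR and NME arrays did not overlap for 47 of the 89 genes (52.8%), against 36.4% of all genes and 52.6% of the brighter genes. AGR cells were on the low side for 39 of these 47 genes and on the high side for 8. All 25 called genes were among the 47, and likewise none of the 4819 genes called over all had arrays that overlapped.

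**Figure D2:**
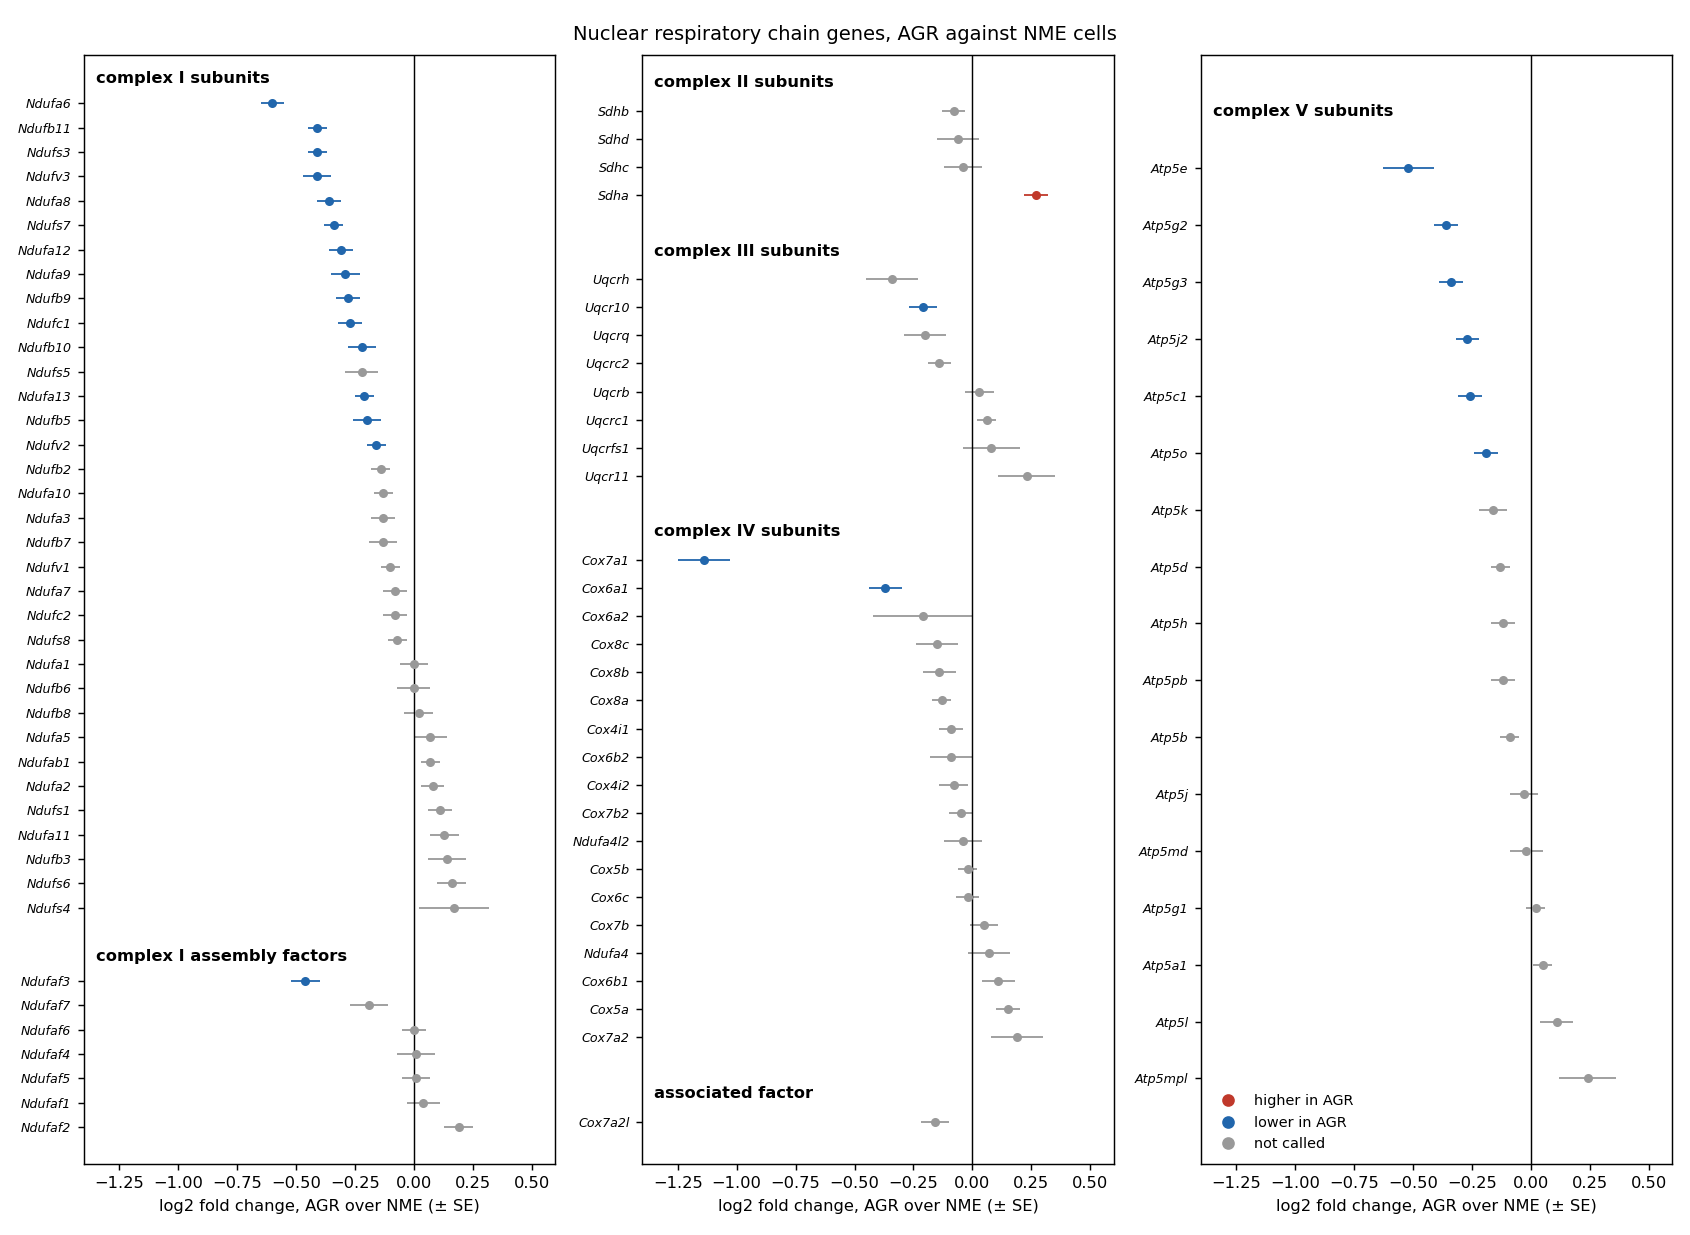
Log2 fold change of each of the 89 genes, AGR over NME, with its standard error from the limma fit (3 arrays per line); genes are grouped by complex and coloured by call. Blue points (lower in AGR) crowd in complex I and complex V, the single red point (higher in AGR) is Sdha at 0.27, and Cox7a1 at -1.14 lies apart from the rest.

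The complexes had unlike shares of lower calls. Complex I subunits had 14 lower calls among 34 genes (41.2%) and complex V subunits 6 among 17 (35.3%). Complex IV subunits had 2 among 18 (11.1%), complex III subunits 1 among 8 (12.5%) and complex II subunits none among 4. The share of lower calls was 11.6% of all genes tested and 17.6% of the brighter genes. Of the 18 complex IV genes, 8 were tissue isoforms, and 4 lay below the median of the probe sets. The 7 complex I assembly factors caught by the symbol rule had 1 lower call, and Cox7a2l, a factor for joining complexes III and IV, was not called (log2 fold change -0.16, adjusted p = 0.081 in limma). The median log2 fold change was -0.13 in complex I, -0.05 in complex II, -0.05 in complex III, -0.06 in complex IV and -0.12 in complex V. The differences between complexes were not tested.

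Promoters of nuclear respiratory genes are known to carry sites for NRF1, for ETS factors such as GABP and for YY1. A RefSeq table of assembly GRCm38.p6 gave the promoter, from 250 bases before to 50 bases after the start, for 73 of the 89 genes. The 4 promoters printed here are those of the gene with the largest change, of a lower gene with an NRF1 match, of a lower gene with a YY1 match and of the gene that was higher, and capitals mark the matched letters.
Cox7a1 (GRCm38.p6 chr7:30183921-30184220, plus strand): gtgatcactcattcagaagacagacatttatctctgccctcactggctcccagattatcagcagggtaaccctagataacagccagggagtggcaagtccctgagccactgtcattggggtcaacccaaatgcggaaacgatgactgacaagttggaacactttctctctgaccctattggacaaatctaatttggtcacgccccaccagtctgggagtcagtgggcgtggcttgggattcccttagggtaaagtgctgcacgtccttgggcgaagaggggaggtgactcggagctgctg
Ndufa6 (GRCm38.p6 chr15:82354242-82354541, minus strand): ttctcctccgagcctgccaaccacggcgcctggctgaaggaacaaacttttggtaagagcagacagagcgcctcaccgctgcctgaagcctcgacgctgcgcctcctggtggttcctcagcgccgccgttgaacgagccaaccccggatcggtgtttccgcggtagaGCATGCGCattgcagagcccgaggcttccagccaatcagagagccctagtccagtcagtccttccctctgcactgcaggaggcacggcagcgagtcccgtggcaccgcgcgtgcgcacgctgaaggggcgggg
Ndufs7 (GRCm38.p6 chr10:80249199-80249498, plus strand): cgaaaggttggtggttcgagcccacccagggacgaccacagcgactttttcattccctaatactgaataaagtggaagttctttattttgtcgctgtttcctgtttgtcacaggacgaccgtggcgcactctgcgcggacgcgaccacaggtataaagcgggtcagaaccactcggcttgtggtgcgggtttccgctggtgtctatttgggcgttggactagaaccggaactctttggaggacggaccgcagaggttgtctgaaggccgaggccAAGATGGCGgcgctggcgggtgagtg
Sdha (GRCm38.p6 chr13:74350191-74350490, minus strand): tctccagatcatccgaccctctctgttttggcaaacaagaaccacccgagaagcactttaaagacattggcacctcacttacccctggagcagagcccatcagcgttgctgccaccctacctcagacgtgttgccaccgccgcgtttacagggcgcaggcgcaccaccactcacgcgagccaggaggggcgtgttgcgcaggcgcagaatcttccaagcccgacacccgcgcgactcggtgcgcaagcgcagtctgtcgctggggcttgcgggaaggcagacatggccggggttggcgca
The letters searched on both strands were GCATGCGC for NRF1, CCGGAAGT for ETS factors and AAGATGGCG for YY1. A gene with several promoters counted if any of them held the letters. The NRF1 letters overlap their own reverse complement and can share end letters with the YY1 letters. Both NRF1 and ETS letters were found for 1 gene, Uqcr11. The NRF1 letters were found for 12 of the 73 genes (16.4%), against 4.27% of 15614 genes on the arrays and 5.89% of 9386 brighter genes. The YY1 letters were found for 7 (9.59%), against 2.29% and 3.52% of the same sets of genes. The ETS letters were found for 5 (6.85%), against 6.01% and 8.94%. Among the 23 lower genes with a promoter, 4 (17.4%) had the NRF1 letters, 4 (17.4%) the YY1 letters and 1 (4.35%) the ETS letters. Among the 50 other genes, 8 (16%) had the NRF1 letters, 3 (6.0%) the YY1 letters and 4 (8.0%) the ETS letters. The lower genes with NRF1 letters were Ndufa6, Ndufa8, Cox6a1 and Atp5g2, those with YY1 letters were Ndufs7, Ndufa9, Ndufc1 and Atp5j2, and Ndufs3 had the ETS letters. The windows of Cox7a1 and Sdha, the largest decrease and the single increase, held none of these letters, like those of most of the 73 genes. A match describes the sequence and is not a measured binding site.

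Complex I carries electrons from NADH to coenzyme Q through a core of catalytic subunits that is wrapped in accessory subunits. Of its 6 measured nuclear core subunits, 3 were lower in AGR cells and none was higher. Ndufs3, a core subunit of the arm that reaches into the matrix, read 11.35, 11.38 and 11.33 log2 units in AGR arrays 1 to 3, against 11.81, 11.72 and 11.75 in NME arrays 1 to 3. Every AGR array lay below every NME array, with a log2 fold change of -0.41 ± 0.04 (SE; adjusted p = 8.4e-04 in limma). Ndufs7, which holds the last iron-sulphur cluster before coenzyme Q, read 13.21, 13.19 and 13.18 in AGR cells, against 13.56, 13.53 and 13.50 in NME cells. The gap between the lines was wider than the spread within either, at -0.34 ± 0.04 (adjusted p = 0.00128 in limma). Its promoter is the one shown with the YY1 letters. Ndufv2, an iron-sulphur subunit of the NADH-oxidising end, read 11.89, 11.80 and 11.84 in AGR cells, against 12.03, 11.99 and 11.99 in NME cells. Its difference of -0.16 ± 0.04 was the smallest that passed (adjusted p = 0.0391 in limma).

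The other core subunits did not pass the test, although their arrays did not overlap either. Ndufv1, the subunit that binds NADH and the flavin cofactor, read 11.72, 11.79 and 11.71 in AGR cells, against 11.82, 11.83 and 11.86 in NME cells (log2 fold change -0.10 ± 0.04, adjusted p = 0.176 in limma). Ndufs8, another iron-sulphur subunit, differed by -0.07 ± 0.04 (adjusted p = 0.283 in limma). Ndufs1, the largest iron-sulphur subunit, read 10.79, 10.78 and 10.86 in AGR cells, against 10.73, 10.62 and 10.76 in NME cells. It was the core subunit on the high side, at 0.11 ± 0.05 (adjusted p = 0.231 in limma).

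Among the 28 other complex I subunits, 11 were lower in AGR cells and none was higher. Ndufa6, an accessory subunit of the matrix arm, had the largest change of any complex I gene. It read 10.54, 10.54 and 10.66 in AGR cells, against 11.24, 11.15 and 11.15 in NME cells. Every AGR array was well below every NME array, a change of -33.9% on the linear scale (log2 fold change -0.60 ± 0.05, adjusted p = 3.9e-04 in limma). Its promoter is the one shown with the NRF1 letters. Ndufb11, an accessory subunit of the membrane arm encoded on the X chromosome, read 11.63, 11.68 and 11.70 in AGR cells, against 12.11, 12.08 and 12.06 in NME cells (-0.41 ± 0.04, adjusted p = 6.6e-04 in limma). Ndufv3, an accessory subunit at the NADH-oxidising end, read 9.93, 9.76 and 9.86 in AGR cells, against 10.31, 10.19 and 10.29 in NME cells (-0.41 ± 0.06, adjusted p = 0.00291 in limma). Neither gene had an AGR array that reached the lowest NME array. The other accessory subunits that were lower were Ndufa8 (-0.36), Ndufa12 (-0.31), Ndufa9 (-0.29), Ndufb9 (-0.28), Ndufc1 (-0.27), Ndufb10 (-0.22), Ndufa13 (-0.21) and Ndufb5 (-0.20). NDUFA9 sits near the joint of the arms, and NDUFA13 is also known as the growth-suppressing protein GRIM-19. The largest change on the high side was that of Ndufs4, an accessory subunit of the matrix arm, at 0.17 ± 0.15 (adjusted p = 0.524 in limma), and it rested on AGR array 2, at 11.88 beside 11.30 and 11.33 in the other AGR arrays and 11.35, 11.29 and 11.37 in NME cells.

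Assembly factors build complex I without staying in it. Ndufaf3, a factor for the part of the matrix arm that meets the membrane, read 9.96, 9.92 and 9.94 in AGR cells, against 10.35, 10.35 and 10.50 in NME cells. It was lower in AGR cells by -0.46 ± 0.06 on the log2 scale (adjusted p = 0.00131 in limma). The other 6 factors did not pass, and lay between -0.19 (Ndufaf7) and 0.19 (Ndufaf2). Ndufaf2 arrays did not overlap, with 8.44, 8.57 and 8.63 in AGR cells, against 8.31, 8.39 and 8.39 in NME cells (adjusted p = 0.0733 in limma). Ndufaf2 passed as higher without AGR array 1 (adjusted p = 0.0301) and after quantile normalization (adjusted p = 0.0406), which makes the count of higher calls 2 instead of 1.

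Complex II, succinate dehydrogenase, is shared with the TCA cycle and is built wholly from nuclear genes. Sdha, its catalytic flavoprotein, was the single gene of the 89 called higher in AGR cells. It read 12.21, 12.12 and 12.21 in AGR cells, against 11.92, 11.84 and 11.97 in NME cells. The AGR arrays were all above the NME arrays, by 20.6% (log2 fold change 0.27 ± 0.05, adjusted p = 0.0101 in limma). The other 3 subunits overlapped between the lines and did not pass. Sdhb, the iron-sulphur subunit, differed by -0.08 ± 0.05 (adjusted p = 0.322), and the membrane anchors Sdhc and Sdhd by -0.04 ± 0.08 and -0.06 ± 0.09 in the same limma fit.

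Complex III had 1 lower call. Uqcr10, one of its small subunits, read 10.50, 10.28 and 10.39 in AGR cells, against 10.58, 10.60 and 10.62 in NME cells, and passed narrowly (-0.21 ± 0.06, adjusted p = 0.0479 in limma). Uqcrh, the hinge subunit beside the cytochrome c docking site, had a larger difference with a wider spread. It read 11.25, 10.86 and 11.13 in AGR cells, against 11.45, 11.30 and 11.51 in NME cells (-0.34 ± 0.11, adjusted p = 0.0651 in limma). Uqcrh passed as lower without AGR array 1 (adjusted p = 0.0442), after quantile normalization (0.0464) and with genes below the median of the probe sets left out (0.039), but not with those below the 25th percentile left out (0.0542). The count in complex III was 0 after median centring of the arrays. The structural core subunits Uqcrc1 and Uqcrc2 differed by 0.06 ± 0.04 (adjusted p = 0.371) and -0.14 ± 0.05 (adjusted p = 0.0843), and neither passed. Uqcrfs1, the Rieske iron-sulphur protein, differed by 0.08 ± 0.12 and was set by NME array 2, at 10.00 beside 10.45 and 10.43 in the other NME arrays.

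Complex IV, cytochrome c oxidase, had its 2 lower calls in isoform genes. Cox7a1 read 8.83, 8.48 and 8.84 in AGR cells, against 9.83, 9.75 and 10.01 in NME cells. Even the highest AGR array lay well below the lowest NME array, and the fit gave a log2 fold change of -1.14 ± 0.11 (adjusted p = 6.1e-04 in limma), which is 2.21-fold lower in AGR cells. Cox7a2, the widespread isoform of the same subunit, overlapped between the lines, with 11.13, 10.78 and 11.06 in AGR cells, against 10.77, 10.69 and 10.94 in NME cells (0.19 ± 0.11, adjusted p = 0.279 in limma). Cox6a1, the widespread isoform of another small subunit, read 11.51, 11.42 and 11.38 in AGR cells, against 11.81, 11.70 and 11.92 in NME cells. It was lower in AGR cells (-0.37 ± 0.07, adjusted p = 0.00822 in limma). Its muscle-type partner Cox6a2 scattered widely within both lines, with 8.43, 9.12 and 8.41 in AGR cells and 8.73, 9.12 and 8.75 in NME cells (-0.21 ± 0.21, adjusted p = 0.564 in limma).

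The other tissue isoforms gave no further call. Of the 8 isoform genes listed (Cox4i2, Cox6a2, Cox6b2, Cox7a1, Cox7b2, Cox8b, Cox8c and Ndufa4l2), 4 lay below the median of the probe sets, and Cox7a1 was the only 1 called. The widespread subunits Cox4i1 and Cox5a, which bind the catalytic core early in assembly, also did not pass. Cox4i1 differed by -0.09 ± 0.05 (adjusted p = 0.248 in limma). Cox5a differed by 0.15 ± 0.05 (adjusted p = 0.0988 in limma), with AGR arrays at 11.47, 11.37 and 11.44, all above the NME arrays at 11.26, 11.24 and 11.35. Cox5b and Cox6c both differed by -0.02 in the same fit.

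Complex V turns the passage of protons through a membrane ring into ATP made by the catalytic F1 head. Of the 5 genes of the F1 head, the stalk subunits Atp5e and Atp5c1 were lower in AGR cells. Atp5e, which encodes subunit epsilon, read 8.68, 8.96 and 8.86 in AGR cells, against 9.25, 9.24 and 9.57 in NME cells (-0.52 ± 0.11, adjusted p = 0.0148 in limma). Atp5c1, which encodes the rotating subunit gamma, read 12.32, 12.24 and 12.24 in AGR cells, against 12.60, 12.48 and 12.50 in NME cells (-0.26 ± 0.05, adjusted p = 0.01 in limma). The genes of the catalytic pair did not pass the test. Atp5b, the catalytic subunit beta, differed by -0.09 ± 0.04 (adjusted p = 0.168 in limma) with arrays that did not overlap, and passed as lower by the methods' t-test (adjusted p = 0.0396) and in the trended robust fit (0.0428). Atp5a1, subunit alpha, differed by 0.05 ± 0.04 (adjusted p = 0.518 in limma), and Atp5d, subunit delta, by -0.13 ± 0.04 (adjusted p = 0.0551). Atp5d passed as lower by the methods' t-test (adjusted p = 0.0259), with an offset of 16 (0.0364) and in the trended robust fit (0.00823).

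A trio of genes encodes the same mature subunit of the membrane ring, and they did not move alike. Atp5g2 read 12.63, 12.53 and 12.64 in AGR cells, against 12.95, 12.95 and 12.98 in NME cells (-0.36 ± 0.05, adjusted p = 0.00173 in limma). Atp5g3 read 12.35, 12.18 and 12.24 in AGR cells, against 12.60, 12.59 and 12.60 in NME cells (-0.34 ± 0.05, adjusted p = 0.00412 in limma). Both were lower in AGR cells with no overlap. Atp5g1 overlapped fully, with 12.95, 12.95 and 12.89 in AGR cells and 12.89, 12.96 and 12.89 in NME cells (0.02 ± 0.04, adjusted p = 0.846 in limma). The difference between these genes was not tested. The remaining lower calls were Atp5j2, a membrane subunit of the synthase (-0.27, adjusted p = 0.0105), and Atp5o, the subunit that joins the stator to the head (-0.19, adjusted p = 0.0274 in limma).

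**Figure D3:**
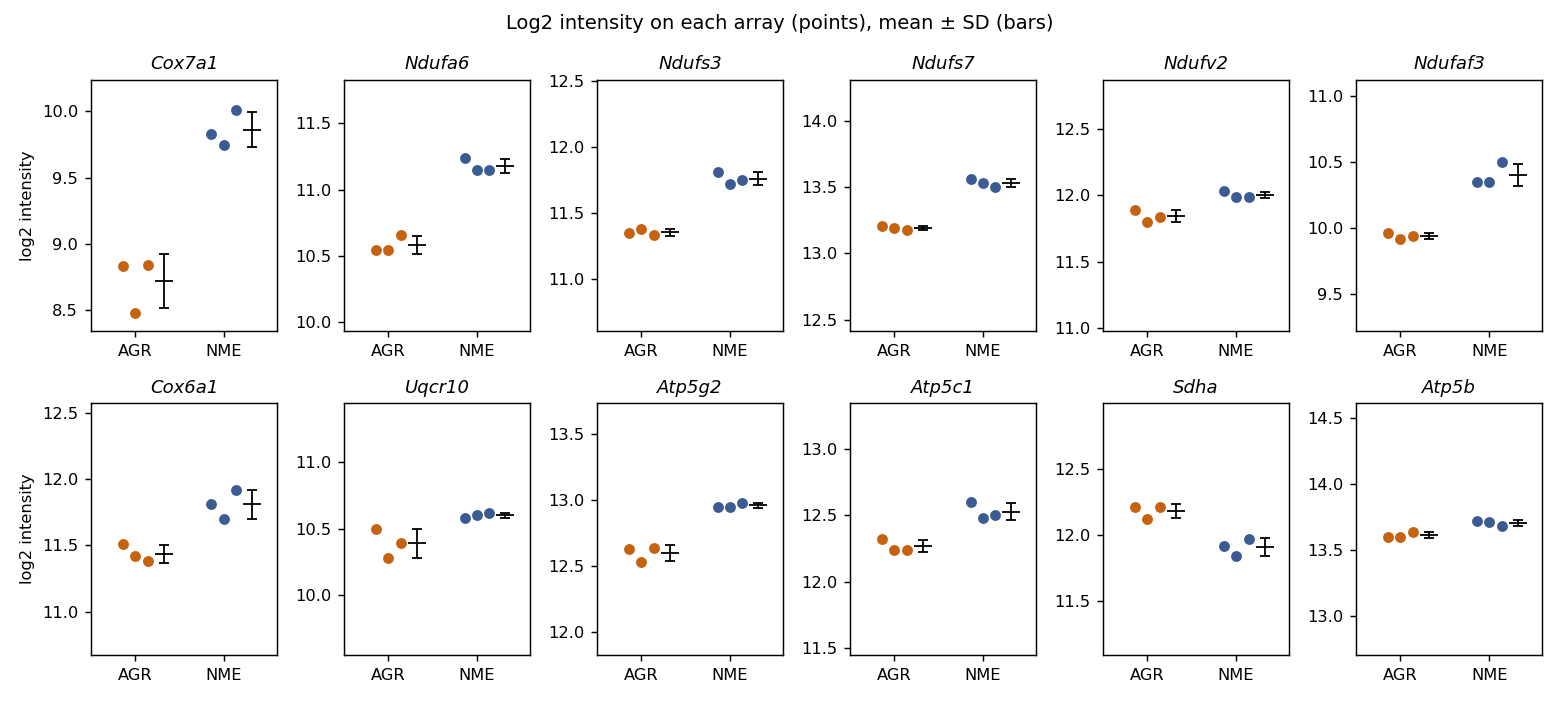
Log2 intensity on each array (points) for 12 of the genes described in the text, with AGR arrays to the left of NME arrays and, beside each group, its mean and SD (n = 3). The 10 lower genes, from Cox7a1 to Atp5c1, have no AGR array as high as the lowest NME array, Sdha has every AGR array above the NME arrays, and Atp5b, which was not called, differs by -0.09.

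Over all 89 genes, called or not, the median deviation from the NME mean was -0.09, -0.10 and -0.10 log2 units on AGR arrays 1, 2 and 3, against 0.00, -0.03 and 0.03 on the NME arrays. Over all genes tested it was 0.00, -0.01 and -0.03 on the AGR arrays, against -0.01, 0.00 and 0.01 on the NME arrays. The AGR arrays thus differed little from each other in this median. For 17 genes with several probe sets, every probe set gave the same call as the brightest. Of the 25 calls, 18 held in all of 15 other settings of normalization, filter, test and array left out, and 7 did not. In the other direction, 11 of the 64 genes that were not called passed in at least 1 of these settings.

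The 7 calls that did not hold in all of these settings kept their direction in every one of them. With arrays left out, their limma adjusted p-values crossed 0.05. Their log2 fold changes over the settings lay between -0.58 and -0.41 for Atp5e, -0.34 and -0.25 for Ndufa9, -0.26 and -0.17 for Ndufb10, -0.22 and -0.16 for Atp5o, -0.24 and -0.17 for Ndufb5, -0.19 and -0.13 for Ndufv2, and -0.27 and -0.16 for Uqcr10. Atp5e was not called without AGR array 1 (0.0513) or AGR array 3 (0.0596). Ndufa9 was not called without AGR array 3 (0.0563), NME array 1 (0.052) or NME array 3 (0.057). Ndufb10 was not called without AGR array 1 (0.0597), NME array 1 (0.105), NME array 2 (0.0668) or NME array 3 (0.109). Atp5o was called without NME array 2, and not without AGR array 1 (0.0817), AGR array 2 (0.0515), AGR array 3 (0.0624), NME array 1 (0.0684) or NME array 3 (0.0856). Ndufb5 was likewise called without NME array 2, and not without AGR array 1 (0.0975), AGR array 2 (0.0851), AGR array 3 (0.0564), NME array 1 (0.132) or NME array 3 (0.14). Ndufv2 was called without AGR array 1, and not without AGR array 2 (0.0738), AGR array 3 (0.104), NME array 1 (0.118), NME array 2 (0.0711) or NME array 3 (0.0966). Uqcr10 was also called without AGR array 1, and not without AGR array 2 (0.0731), AGR array 3 (0.131), NME array 1 (0.114), NME array 2 (0.122) or NME array 3 (0.144). With all arrays kept, median centring took away the calls of Atp5o, Ndufb10, Ndufb5, Ndufv2 and Uqcr10, and the methods' t-test those of Atp5e, Ndufa9, Ndufb10, Ndufb5 and Uqcr10. Uqcr10 also did not pass in the trended robust fit (0.054).

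The median change of the brighter genes differed between chromosomes, and the respiratory chain genes were therefore set beside the other genes of their chromosome. Position within a chromosome was not used. On 7 of the 20 chromosomes compared (2, 5, 9, 10, 13, 16 and 18 among 1 to 19 and X), the other brighter genes had a median log2 fold change more than 0.05 from 0. Chromosome 13 held 6 respiratory chain genes, Sdha among them, and all 6 lay above 0. The other brighter genes of chromosome 13 had a median of 0.11, and 33.4% of them were higher and 10.7% lower in AGR cells. Chromosome 2 held 8 of these genes, of which Ndufs3, Ndufa8, Atp5c1, Atp5e and Atp5g3 were lower, and its other brighter genes had a median of -0.11 with 31.7% lower. Chromosome 10 held 6, with Ndufs7 and Ndufa12 lower, beside a median of -0.14 and 37.6% lower among its other brighter genes. Chromosome 5 held 4, with Cox6a1 and Atp5j2 lower, beside a median of -0.09 with 29.9% lower and 8.88% higher among its other brighter genes.

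The other chromosomes held lower calls and no higher call. On them, 13 of 55 respiratory chain genes (23.6%) were lower and none was higher, against 14.7% lower and 19.5% higher among 7671 brighter genes. The median over these 55 genes was -0.12. Cox7a1 on chromosome 7, Ndufa6, Ndufb9 and Atp5g2 on chromosome 15, and Ndufb10, Ndufv2 and Ndufv3 on chromosome 17 were among the 13. Where the median of the other brighter genes was more than 0.05 below 0, 9 of 18 respiratory chain genes were lower and none was higher. On each of those chromosomes (2, 5 and 10), 29.9% to 37.6% of the other brighter genes were lower and 7.01% to 9.55% higher. Where the median was more than 0.05 above 0, 2 of 16 respiratory chain genes were lower and 1 was higher. On each of those chromosomes (9, 13, 16 and 18), 9.17% to 11.8% of the other brighter genes were lower and 33.4% to 42.8% higher. The 2 lower genes there were Ndufaf3 on chromosome 9 (median 0.11) and Atp5o on chromosome 16 (median 0.09). The part of the chromosomes in the single results was not tested.

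**Figure D4:**
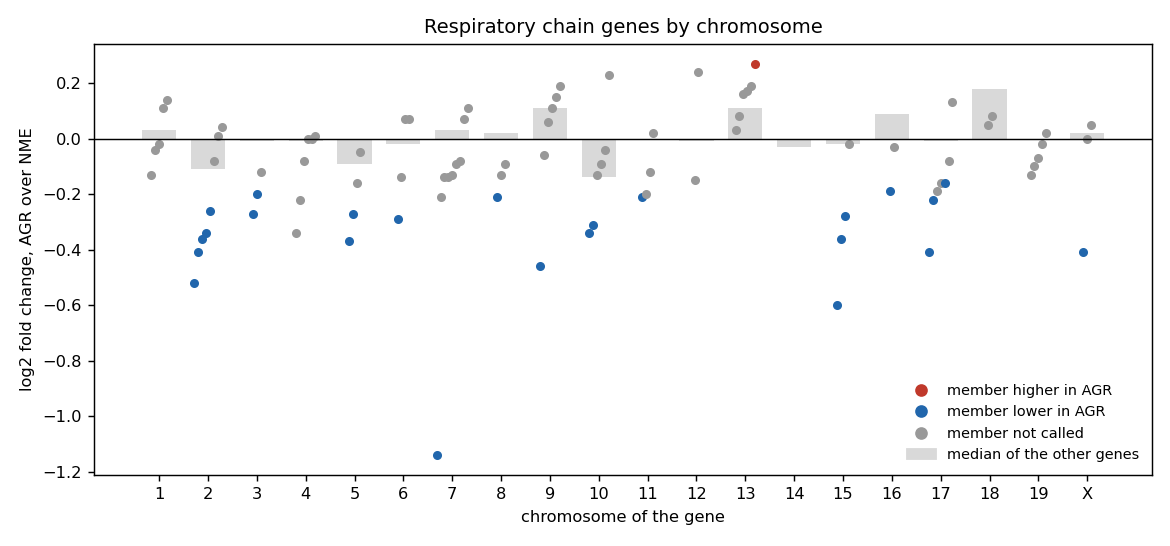
Log2 fold change (AGR over NME) of each respiratory chain gene (points, coloured by call) by chromosome, with a grey bar from 0 to the median of the other genes on that chromosome that are brighter than the median of the probe sets. Genes on chromosome 13 all lie above 0, where the other genes have a median of 0.11, and 5 of the 8 on chromosome 2 are called lower, where it is -0.11.

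Genes that serve the respiratory chain without falling under the symbol rule were called in both directions. Over 12 lists with 123 measured genes, 26 (21.1%) were lower and 15 (12.2%) higher in AGR cells, against 11.6% lower and 12.6% higher of all genes tested and 17.6% lower and 19.7% higher of the brighter genes. Calls in either direction made up 33.3%, between the 24.2% of all genes and the 37.2% of the brighter genes. Only 2 of the 13 subunits encoded in mitochondrial DNA were measured, COX2 (-0.04) and ND3 (-0.07), and neither was called. None of 3 cytochrome c and cytochrome c1 genes was called. Cycs, which encodes the electron carrier cytochrome c, and Cyc1, the cytochrome subunit of complex III, differed by 0.01 and -0.05.

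The 5 lists of further assembly and regulatory factors, with 46 genes, held 10 lower (21.7%) and 5 higher (10.9%) calls, beside the same shares over all and over brighter genes. Factors for complex IV made up most of the lower ones, with 7 of 21 lower and 1 higher. Cox19, a factor in copper delivery to the enzyme, was the largest of them (-0.75 ± 0.10, adjusted p = 0.00221 in limma), followed by Cox20 (-0.57), Oxa1l (-0.37), Surf1 (-0.36), Cox15 (-0.30), Cox14 (-0.23) and Higd2a (-0.17). Cox10, which makes a precursor of the enzyme's haem, was higher (0.31 ± 0.04, adjusted p = 0.00155 in limma). For complex I, Timmdc1 was lower (-0.29) while Tmem186 (0.40) and Acad9 (0.25) were higher. For complex III, Uqcc3 was lower (-0.27) while Uqcc2 (0.50) and Lyrm7 (0.21), which lay below the median of the probe sets, were higher. Atpif1, the inhibitor protein of the ATP synthase, was lower (-0.22), and none of 4 complex II factors was called.

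Pathways that feed the chain held calls in both directions. The shares to set beside them were 11.6% lower and 12.6% higher of all genes, and 17.6% lower and 19.7% higher of the brighter genes. In either direction, 24.2% of all genes and 37.2% of the brighter genes were called. In the synthesis and handling of coenzyme Q, 4 of 12 genes (33.3%) were lower (Coq4 at -0.61, Coq10a at -0.55, Coq9 at -0.35 and Coq5 at -0.29) and 2 (16.7%) were higher (Coq3 at 0.53 and Coq7 at 0.29). In the TCA cycle, 6 of 17 genes (35.3%) were lower and 3 (17.6%) were higher. Subunits of a single TCA enzyme, the NAD-dependent isocitrate dehydrogenase, were on both sides, with Idh3a higher (0.52) and Idh3b (-0.32) and Idh3g (-0.15) lower. Suclg2 (-0.44), Pdhb (-0.33), Fh1 (-0.29) and Mdh2 (-0.15) were the other lower genes, and Ogdh (0.20) and Dlat (0.17) the other higher ones. Of 11 carriers, channels and uncoupling proteins, 18.2% were called: Vdac2, a channel of the outer membrane, was lower (-0.27) and Slc25a4, an ADP/ATP carrier, was higher (0.29).

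Of 18 known transcriptional regulators of these genes, 13 did not pass the test, and the 5 that did made up 27.8%, against 24.2% of all genes and 37.2% of the brighter genes. The orphan receptor Esrra (-0.36 ± 0.07, adjusted p = 0.011 in limma), the coactivator Ppargc1b (-0.27) and the stress response factor Nfe2l2 (-0.54) were lower, while the coactivators Pprc1 (0.33) and Hcfc1 (0.19) were higher. Nrf1 (0.02), Gabpa (0.06) and Ppargc1a (0.14) were not called. Among 14 genes that maintain and transcribe mitochondrial DNA, of which 28.6% were called, Tfam, its packaging and transcription factor (-0.33 ± 0.07, adjusted p = 0.0154 in limma), and Polg2 (-0.24) were lower. Top1mt (0.40) and Mgme1 (0.28) were higher, and Polg2 lay below the median of the probe sets.

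**Figure D5:**
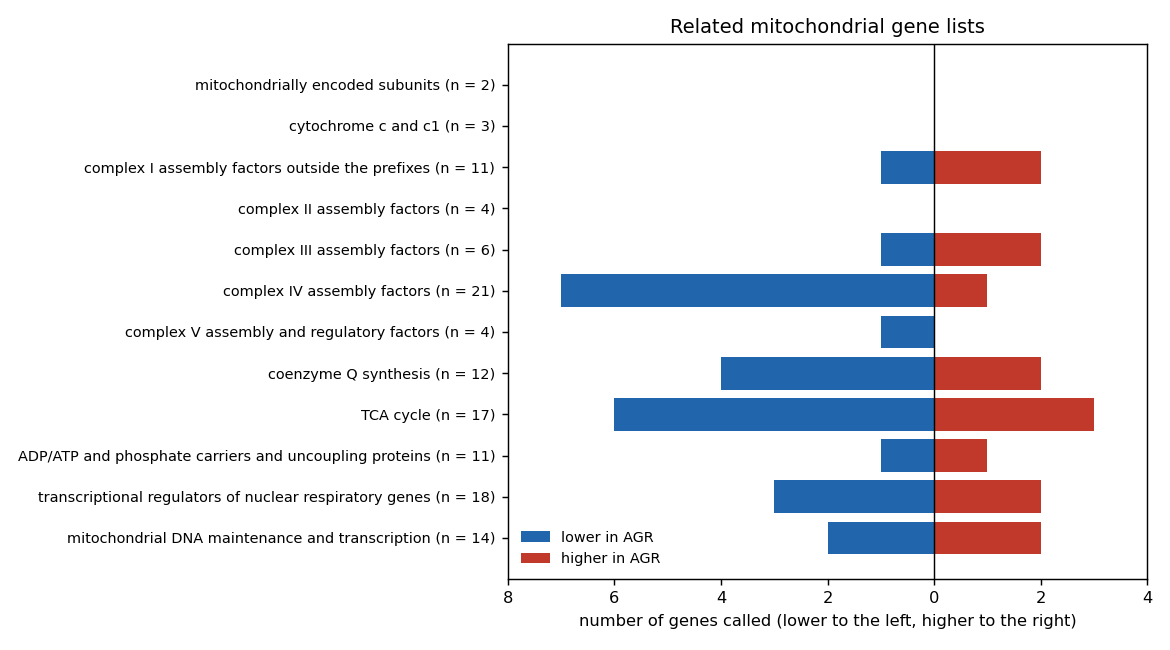
Number of genes called lower (bars to the left) and called higher (bars to the right) in AGR cells in each list of genes related to the respiratory chain, with the number measured as n. Complex IV assembly factors have 7 lower calls and 1 higher call, and TCA cycle genes 6 and 3.

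Markers of cell types were read on the same arrays. Of 7 mammary epithelium markers, Krt19 (-1.04) and Cdh1 (-0.60) were lower in AGR cells, while Krt8 (-0.10), Krt18 (-0.05), Krt7 (-0.08), Cldn4 (0.04) and Epcam (-0.07) were not called. The summed intensity of the list was 43400 to 44700 in AGR cells, against 55200 to 55800 in NME cells, and Epcam lay below the median of the probe sets in these cells. Of 5 striated muscle markers none was called, with sums of 1480 to 1560 in AGR cells, against 1450 to 1580 in NME cells, beside the change of the muscle-type isoform Cox7a1. Of 5 adipocyte markers, Cidec was lower (-1.28) and the other 4, Adipoq among them, lay below the median of the probe sets, with sums of 682 to 767 in AGR cells, against 1160 to 1360 in NME cells. Cd68 (0.96) and Csf1r (0.28) were higher among 5 leukocyte markers, with Ptprc, Adgre1 and Itgam below the median of the probe sets and sums of 1000 to 1040 in AGR cells, against 716 to 777 in NME cells. Pdgfra (0.39) was higher among 6 fibroblast markers, of which 4 lay below that median, and the sums were 1200 to 1280 in AGR cells, against 1140 to 1230 in NME cells. All 5 endothelial markers lay below that median and none was called, with sums of 480 to 520 in AGR cells, against 498 to 547 in NME cells. The part of these markers in the results above was not tested, and less RNA per cell and fewer cells of a kind cannot be told apart on such arrays.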

How the data were processed

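The 6 arrays were assigned to AGR or NME cells by their titles. The authors deposited processed intensities, linear and not in log2, and the submitters' processing notes name MAS5 with no version. MAS5 relies on mismatch probes that this array type lacks, and how the intensities were normalized is not given in the sources used here. Array medians lay between 190.4 and 200.8. The design text speaks of more groups than the labels give. The number of arrays limits the precision (median SD of the 89 genes 0.06 log2 units in AGR and in NME cells).

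Log2 was taken with no offset. Of 35557 probe sets, 21789 had 1 symbol, and the brightest by its mean over all arrays stood for each of 19938 genes. AGR was compared with NME in limma 3.58.1 under R 4.3.3 (lmFit, eBayes), with Benjamini-Hochberg adjustment over all genes, after the code was tested on simulated data. Brighter genes are those above 7.61 log2 units, the median of the probe sets. The 89 genes came from 114 probe sets, and all 89 matched a RefSeq gene ID (GRCm38.p6), which gave their chromosomes. Binding of a probe set to transcribed copies of a gene was not tested. The symbol rule uses no measured value, but the genes and lists were chosen with earlier results of these data known. Genes named are every called member, per complex the 2 largest changes and the core subunits, the tissue isoforms, and up to 6 called genes per related list, while the other genes given with values were named after these were seen. Alternatives were quantile normalization, median centring, removal of dim genes, the mean of all probe sets, an offset of 16, a trended robust fit, the methods' t-test on the same values, the replicate number as a block, a fold change above 2 and each array left out.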

Additional observations from a re-analysis of the deposited data

How the results depend on the processing

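The count of lower respiratory chain genes was 24, and it was 19 after median centring, 23 by the methods' t-test with Benjamini-Hochberg adjustment, 28 with a trended robust fit, 27 with an offset of 16, 25 after quantile normalization and 18 to 22 with 1 array left out. A fold change above 2 left 1 lower and 0 higher genes, and 598 of the 4819 genes called over all. The count of higher genes was 2 after quantile normalization and 1 to 2 with 1 array left out. Without the genes on chromosomes with a shifted median, Sdha among them, it was 0, with 13 lower of the 55 genes left. That setting was chosen after seeing the data. The log2 fold change of Uqcrfs1, which was not called, ran between -0.06 (without NME array 2) and 0.16 with 1 array left out, and that of Ndufa4l2, also not called, between -0.1 and 0.03 (without AGR array 3), with 0.00 without NME array 2. Whether the replicate numbers pair the samples could not be told. Deviations of same-numbered arrays correlated at -0.13, 0.33 and 0.26, and those of differently numbered arrays between -0.47 and 0.36. The replicate number as a block gave 5040 calls over all genes, against 4819 without it. With the replicate number as a block the count of lower genes was 24, of which 22 were shared, without Ndufv2 and Uqcr10 and with Ndufaf7 and Uqcrh. Counts in the related lists also moved under quantile normalization, median centring and removal of genes below the median of the probe sets. Lower calls ran from 5 to 8 for complex IV factors and from 4 to 7 for TCA cycle genes. After median centring, 0 complex I factors were lower. In all 3 settings, 1 gene of mitochondrial DNA maintenance and transcription was lower, instead of 2. The precision is that of 3 arrays per line.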

Other observations

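Probe sets with several symbols were left out of the tests, and for 4 symbols that start with the letters of the rule they are the only ones on the array. The 2 probe sets shared by Ndufb4 and Ndufb4b, copies of an accessory subunit gene of complex I, both differed by -0.13 log2 units (AGR minus NME), with no overlap between the lines. The first of them read 12.24, 12.21 and 12.16 in AGR arrays 1 to 3, against 12.34, 12.32 and 12.34 in NME arrays 1 to 3. The 3 probe sets shared by Cox7c, a small complex IV subunit, and Gm12338 differed by -0.02 to -0.01. The probe set shared by Ndufs5 and Ndufs5-ps differed by -0.12, with 8.18, 8.61 and 8.31 in AGR cells and 8.48, 8.48 and 8.48 in NME cells, which overlapped.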
